A study of Mus musculus with 6 samples.

Results

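Type I interferon-stimulated genes were followed in regulatory T cells (Treg) as a list of 40 named genes, of which 35 had a probe set on the array that carries their symbol alone. For each of these, the probe set with the highest mean over the 6 arrays was taken, out of 12393 genes measured in that way. Ddx58, Ly6e, Ifi44 and Xaf1 had no probe set listed under their symbol. The 1 probe set of Isg15 is also assigned to another gene, so no value is given for Isg15. The cells were CD4+CD25+ T cells, separated with magnetic beads from mice of the C57BL/6 strain. One group of 3 samples came from HDAC9-/- mice, which lack the class IIa histone deacetylase HDAC9, and the second group, also of 3, came from wild type mice, with 1 array per sample. Values by array are listed in the order of replicates 1, 2 and 3. No treatment is given for either group in the labels. How the HDAC9 allele was made, and whether a sample was 1 mouse or a pool, is not known from the labels, so the tests below cover only the spread among these 6 samples, part of which may be technical.

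Type I interferons bind a receptor at the cell surface whose kinases activate transcription factors. A complex that holds STAT2 and IRF9 binds the interferon-stimulated response element in the promoters of the genes described here. Interferon gamma acts through another element, the gamma-activated site. Many of the genes answer to both kinds of interferon, and their products restrict viruses and intracellular microbes or feed back on the pathway. In T cells, as in other cells, they are also present without infection, at levels that differ between genes. Here the log2 means over the 6 arrays ran from 5.54 for Mx2 to 11.84 for Ifi27l2a.

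The list holds 5 genes of the immunity-related GTPase and guanylate-binding protein families, called the GTPase genes below, all lower in HDAC9-/- Treg. Mx1 and Mx2, GTPases of another family, are not counted among them. The promoters below are shown because 4 of these 5 genes hold a response element match close to the start of transcription. So do Rsad2, which was higher, and Ifit1, whose genotypes overlapped. Each line gives the 150 bases just upstream of the start, 5′ to 3′ along the gene, from RefSeq for build GRCm38.p6. Capitals mark matches to the response element core, read as GAAA, any 2 bases and GAAA, on either strand (TTTC, any 2 bases and TTTC where it lies on the other). In Igtp they also mark the gamma-activated site, read as TTC, any 3 bases and GAA, which is the same on both strands.
Igtp: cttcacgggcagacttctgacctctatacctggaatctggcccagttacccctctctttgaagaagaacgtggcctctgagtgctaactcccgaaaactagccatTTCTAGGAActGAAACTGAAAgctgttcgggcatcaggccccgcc
Irgm1: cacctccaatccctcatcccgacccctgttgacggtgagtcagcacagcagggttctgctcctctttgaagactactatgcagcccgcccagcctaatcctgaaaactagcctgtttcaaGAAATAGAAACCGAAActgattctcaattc
Gbp3: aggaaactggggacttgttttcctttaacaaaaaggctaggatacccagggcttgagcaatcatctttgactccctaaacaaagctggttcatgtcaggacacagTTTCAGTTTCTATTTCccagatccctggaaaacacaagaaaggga
Gbp2: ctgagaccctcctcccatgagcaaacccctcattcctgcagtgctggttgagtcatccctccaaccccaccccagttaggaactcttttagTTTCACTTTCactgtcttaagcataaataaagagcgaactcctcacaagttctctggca
Rsad2: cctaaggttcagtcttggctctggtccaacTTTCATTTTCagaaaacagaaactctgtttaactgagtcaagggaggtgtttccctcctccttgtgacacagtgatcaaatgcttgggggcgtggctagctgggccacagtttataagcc
Ifit1: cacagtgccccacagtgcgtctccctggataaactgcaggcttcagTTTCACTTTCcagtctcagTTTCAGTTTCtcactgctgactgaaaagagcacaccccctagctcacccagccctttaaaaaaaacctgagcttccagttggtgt

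These stretches lie at chr11:58199406-58199555 on the plus strand for Igtp, chr11:48871421-48871570 on the minus strand for Irgm1, and chr3:142559894-142560043 and chr3:142620513-142620662 on the plus strand for Gbp3 and Gbp2. Those of Rsad2 and Ifit1 lie at chr12:26456453-26456602 on the minus strand and chr19:34640739-34640888 on the plus strand. In Igtp the gamma-activated site match spans bases 45 to 37 before the start and the response element match bases 34 to 25, without overlap. Irgm1 and Gbp3 each hold a pair of response element matches that overlap, at bases 30 to 15 and 45 to 30, and Gbp2 holds 1 at bases 59 to 50. The match of Rsad2 lies at bases 120 to 111, and those of Ifit1 at 104 to 95 and 85 to 76. Gbp3 has 2 promoters in the table, and the one with the match is shown.

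Within 250 bases upstream of the start, the table held promoters for 26 of the 35 measured genes. The response element core was found for 11 of these genes and the gamma-activated site for 8. Counted over promoters, 32.4% of those of the measured genes held the response element core, against 2.98% of all 32851 promoters. For the gamma-activated site the shares were 23.5% and 7.02%. Of the 11 genes with the response element core, Rsad2 and Bst2 had positive differences. Igtp, Irgm1, Gbp2, Gbp3, Ifit1, Ifit3, Oas1a, Oas3 and Trim30a had negative ones, as did 21 of all 35 genes. Only Rsad2, which was higher in HDAC9-/- samples, and Igtp, Irgm1 and Gbp3, which were lower, had groups without overlap. Over all probe sets, 11.0% were higher and 6.04% lower without overlap. Groups were apart for 10 of all 35 genes, with or without a match, and a link to the motif was not tested. Usp18, Mx1 and Parp14 had no promoter in the table.

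None of the 35 genes passed the test between genotypes, and those with separated groups went in opposite directions. Mx1 and Rsad2 were higher in all HDAC9-/- samples, and Usp18, Parp14, Adar, Sp100 and 4 GTPase genes were lower. The test was limma's moderated test over all 22626 probe sets with an adjusted p threshold of 0.05, and 0 of the 35 genes were called, where the share called over all probe sets was 0.0133% (3 probe sets). The adjusted p of the 35 genes ran from 0.307 to 0.996. At an unadjusted p below 0.05 there were 6 genes, 2 higher and 4 lower, which is 17.1% of the list against 8.78% of all probe sets (5.55% higher and 3.23% lower).

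Separate genotypes were seen for 10 of the 35 genes, or 28.6%, against 17.0% of all probe sets and 18.2% of the brightest probe sets of each gene. Brighter probe sets separated more often. With dim probe sets left out it was 10 of 34 genes, against 23.5% of the 11313 probe sets kept. Of the 10, 2 were higher and 8 lower in HDAC9-/- samples, while over all probe sets 11.0% were higher and 6.04% lower without overlap, and over the brightest probe sets 12.5% and 5.70%. Without wild type replicate 2 the count was 17, 14 of them lower, where leaving that array out raised the share over all probe sets to 27.2%. The share of genes with a positive difference was 40.0% (14 of 35), against 52.2% of all probe sets. After quantile normalization again or alignment of array medians it was 10 of 35, and without wild type replicate 1 it was 17 of 35. The median log2 difference of the list (HDAC9-/- minus wild type) was -0.017, against 0.0078 over all probe sets. It was -0.062, -0.044 and -0.052 without wild type replicate 2, wild type replicate 3 or HDAC9-/- replicate 1, each within 0.1 of 0.

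**Figure D1:**
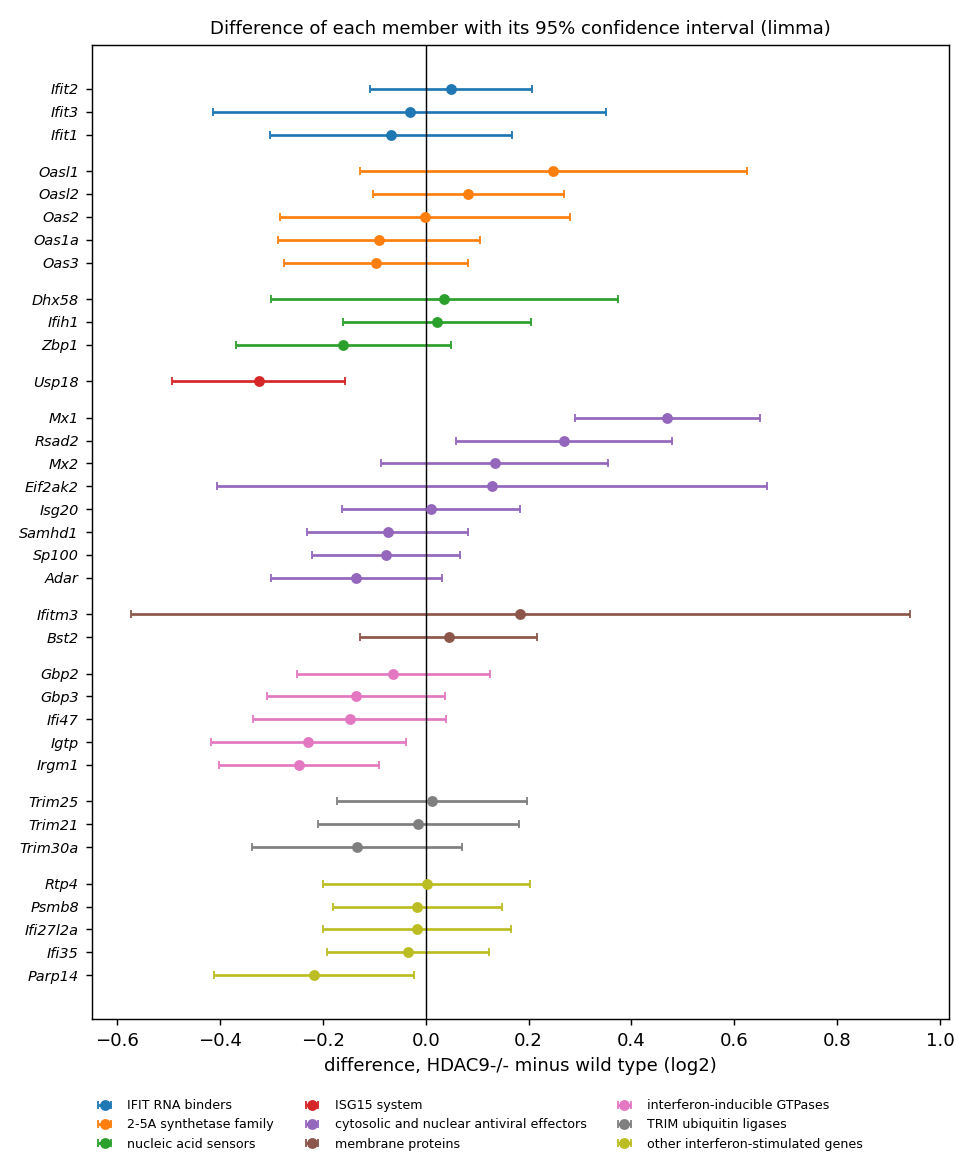
Difference in log2 expression (horizontal axis, HDAC9-/- minus wild type, 3 arrays per genotype) of the 35 measured genes, in colours by role, with 95% confidence intervals from limma. The interval lies above 0 for Mx1 and Rsad2 and below 0 for Usp18, Irgm1, Igtp and Parp14, while the other 29 intervals include 0; the intervals are not adjusted for the number of probe sets.

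Mx1, a dynamin-like GTPase that blocks influenza and related viruses in the nucleus, had the largest difference of the list. Inbred laboratory strains such as C57BL/6 carry an Mx1 allele that makes no working protein, so the value here is a transcript level only. Its log2 expression was 6.53, 6.57 and 6.69 on the wild type arrays against 7.12, 6.99 and 7.09 on the HDAC9-/- arrays. All HDAC9-/- samples lay above all wild type samples, with a gap wider than the range of either group. The difference was 0.47 ± 0.08 (SE), a 1.39-fold higher signal (limma, unadjusted p = 0.00048, adjusted p = 0.307). Its closest relative, Mx2, a cytoplasmic antiviral GTPase, read 5.48 ± 0.13 on wild type and 5.61 ± 0.09 on HDAC9-/- arrays (SD, n = 3), both below the median of all values on the arrays (5.77), and its groups overlapped.

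Rsad2 encodes viperin, an enzyme that makes a chain-terminating nucleotide and halts viral RNA synthesis. It read 7.53, 7.31 and 7.58 on the wild type arrays against 7.70, 7.75 and 7.77 on the HDAC9-/- arrays. The groups did not overlap, and the wild type samples were more spread than the HDAC9-/- samples. The difference was 0.27 ± 0.09 (SE, limma, adjusted p = 0.517), 1.20-fold. The other 2 Rsad2 probe sets were also higher, by 0.22 and 0.13, the former with overlap between genotypes and the latter without. The latter was dim, with means of 4.42 on wild type and 4.55 on HDAC9-/- arrays, below the median of all values (5.77).

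Usp18, the protease that removes ISG15 from proteins and also binds the interferon receptor to dampen its signal, was lower in HDAC9-/- Treg. Its log2 expression was 8.80, 8.64 and 8.70 on the wild type arrays against 8.41, 8.34 and 8.42 on the HDAC9-/- arrays. Every HDAC9-/- sample lay below every wild type sample. The difference was -0.32 ± 0.07 (SE, limma, unadjusted p = 0.0027, adjusted p = 0.398), a 1.25-fold higher signal in wild type. Usp18 and Mx1 thus had differences of opposite sign in the same samples. Mx1 differed by 0.43 and Usp18 by -0.34 after a second quantile normalization, by 0.44 and -0.35 once array medians were aligned, and by 0.48 and -0.35 with weighted arrays.

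**Figure D2:**
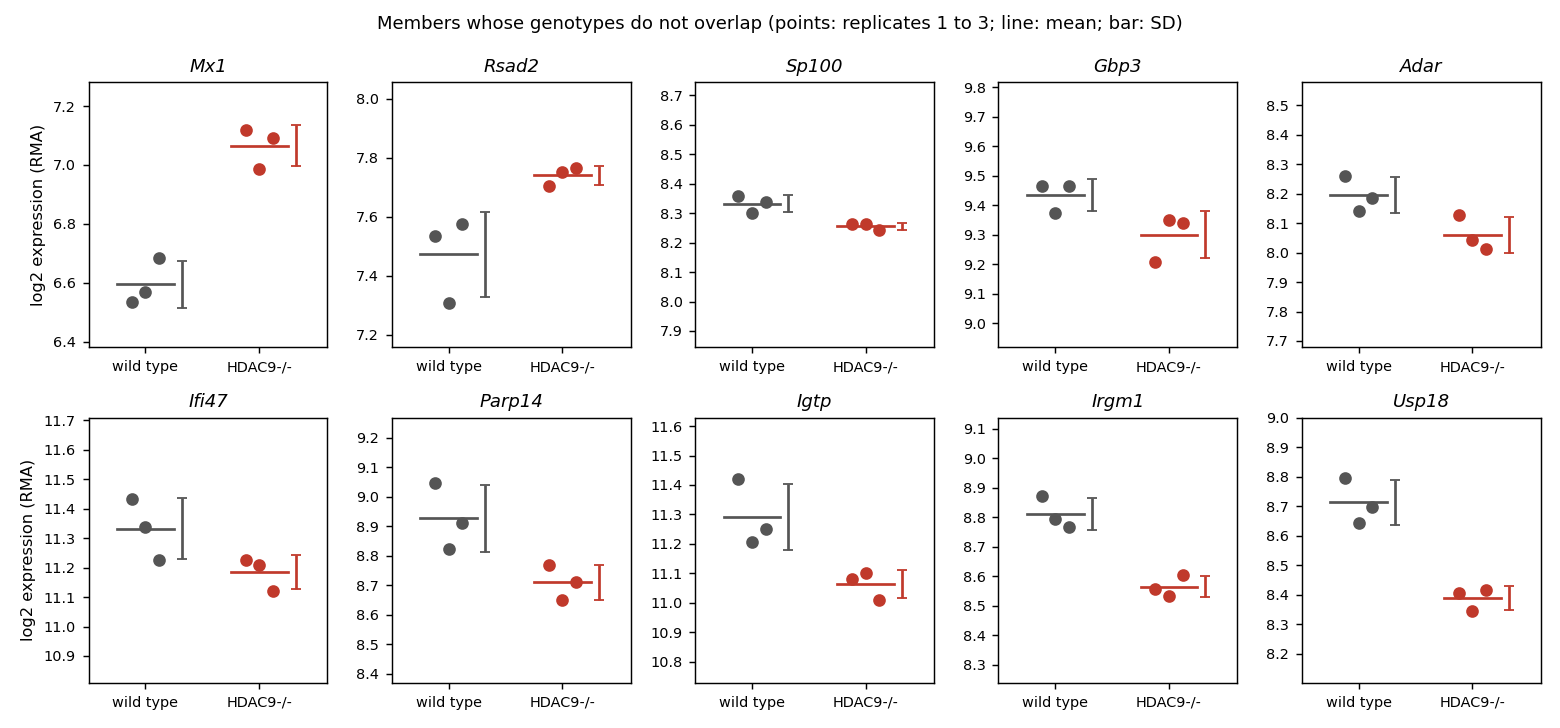
Log2 expression on each array of the 10 genes whose genotypes did not overlap, in the order of their difference, with wild type in grey and HDAC9-/- in red; points are replicates 1 to 3, lines the means and bars the SD, and every panel spans the same 0.9 log2 units. Mx1 and Rsad2 are the 2 genes with higher HDAC9-/- values, and the differences of the lower genes widen from Sp100 to Usp18, with Ifi47 samples of both genotypes meeting at 11.23.

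The immunity-related GTPases and guanylate-binding proteins were lower in HDAC9-/- samples for all 5 genes of the list. Their differences were -0.063 to -0.25, with a median of -0.15. These proteins attack the vacuoles in which microbes live, and interferon gamma induces them strongly. Samples of the genotypes were apart for 4 of the 5, where 6.04% of all probe sets were lower without overlap, and 0 of the 5 passed the test. All 5 differences were also negative under both other normalizations and with array weights, which cannot turn the sign where groups are apart. Separation held for 3 of the 5 after quantile normalization again or alignment of array medians. The direction was not shared by all interferon-inducible GTPases of the list. Mx1 and Mx2, of another family, differed by 0.47 and 0.13, Mx2 with overlapping groups.

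Irgm1, a regulator of the immunity-related GTPases and of autophagy, read 8.87, 8.79 and 8.77 on the wild type arrays against 8.56, 8.53 and 8.60 on the HDAC9-/- arrays. The groups lay apart by more than the range of either. The difference was -0.25 ± 0.07 (SE, limma, adjusted p = 0.441). Igtp, also called Irgm3, read 11.42, 11.21 and 11.25 on the wild type arrays against 11.08, 11.10 and 11.01 on the HDAC9-/- arrays. Its highest value was in wild type replicate 1, and its groups did not overlap (difference -0.23 ± 0.08 SE, adjusted p = 0.539).

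Ifi47, another immunity-related GTPase, read 11.43, 11.34 and 11.23 on the wild type arrays against 11.23, 11.21 and 11.12 on the HDAC9-/- arrays. Wild type replicate 3 and HDAC9-/- replicate 1 were the same to the second decimal, so the separation rests on a very small gap. The difference was -0.15 (adjusted p = 0.616, limma). Gbp3, a guanylate-binding protein, read 9.47, 9.37 and 9.47 on the wild type arrays against 9.21, 9.35 and 9.34 on the HDAC9-/- arrays, again with a narrow gap and a difference of -0.13 (adjusted p = 0.621). Gbp2 differed by -0.063 with overlapping groups in its brightest probe set, whose name marks it as open to cross-hybridisation, and by -0.14 in the other one. The guanylate-binding proteins are near-identical copies in part, and sharing of signal between them was not tested.

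Further GTPases of these families were on a second list of 50 interferon-stimulated genes outside the 40, of which 38 were measured. They were singled out after their values were seen, so their direction is a description. All 4 measured ones were lower, by -0.19 to -0.54, without overlap for 3 of them, where 6.04% of all probe sets were lower without overlap. Irgm2 read 7.39, 7.13 and 7.04 on the wild type arrays against 6.75, 6.61 and 6.58 on the HDAC9-/- arrays, a difference of -0.54 ± 0.11 (SE, limma, adjusted p = 0.398). Its groups lay well apart, and its difference was wider than that of any GTPase of the first list. Gbp6 differed by -0.27, Gbp7 by -0.19 and Iigp1 by -0.41, the last with overlapping groups. Over the whole second list 0 of 38 genes were called, 13 differences were positive and 25 negative, and the median was -0.023. At an unadjusted p below 0.05 there were 6 of its genes, all lower, the 4 GTPases and Trim34a (-0.19) among them, which is 15.8% of that list against 8.78% of all probe sets (3.23% lower).

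Parp14, an ADP-ribosyltransferase that takes part in interleukin-4 and interferon signalling, read 9.05, 8.82 and 8.91 on the wild type arrays against 8.77, 8.65 and 8.71 on the HDAC9-/- arrays. All HDAC9-/- samples were lower, and the difference was -0.22 ± 0.08 (SE, limma, adjusted p = 0.549). Adar, the enzyme that edits adenosine to inosine in double-stranded RNA, read 8.26, 8.14 and 8.19 on the wild type arrays against 8.13, 8.04 and 8.01 on the HDAC9-/- arrays. Its groups were separated by a narrow gap, and the difference was -0.13 (adjusted p = 0.610). Sp100, a protein of nuclear bodies that silence viral DNA, read 8.36, 8.30 and 8.34 against 8.26, 8.26 and 8.24, a difference of -0.077 (adjusted p = 0.714).

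Samhd1, which breaks down nucleotides that retroviruses need, differed by -0.074 with overlap in its brightest probe set. The second of its probe sets read 10.84, 10.78 and 10.84 on the wild type arrays against 10.68, 10.70 and 10.61 on the HDAC9-/- arrays, without overlap. Eif2ak2, the kinase PKR that stops translation on sensing double-stranded RNA, was widely spread among wild type samples, at 6.25, 6.59 and 5.66, and read 6.14, 6.40 and 6.35 on the HDAC9-/- arrays. Its lowest value was in wild type replicate 3, the array that stood apart from the others over all probe sets. Isg20, an exonuclease for RNA, differed by 0.0098.

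The IFIT genes, whose proteins bind viral RNA that lacks the cap of host messages, overlapped between genotypes for all 3 members. Ifit1 read 8.49, 8.15 and 8.24 on the wild type arrays against 8.20, 8.28 and 8.20 on the HDAC9-/- arrays. The highest of the 6 values was wild type replicate 1, and without that sample the difference turned from -0.067 to 0.030. Ifit2 differed by 0.049 and Ifit3 by -0.031, and the 95% confidence interval of Ifit2 ran from -0.11 to 0.21.

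The 2-5A synthetase family makes the messenger that activates the nuclease RNase L, or, in Oasl1, acts in other ways, and all 5 genes overlapped. Oas1a read 8.54, 8.62 and 8.77 on the wild type arrays against 8.58, 8.59 and 8.48 on the HDAC9-/- arrays, a difference of -0.091 with a 95% confidence interval from -0.29 to 0.11. Oas2 differed by -0.0018 and Oas3 by -0.097. Oasl1, which restrains translation of Irf7, read 6.11, 6.39 and 5.74 on the wild type arrays against 6.31, 6.27 and 6.41 on the HDAC9-/- arrays. Its positive difference of 0.25 rested in part on the low wild type replicate 3, and without that array it was 0.079. Oasl2 differed by 0.083.

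Sensors of foreign nucleic acid also overlapped. Ifih1, which encodes the double-stranded RNA sensor MDA5, differed by 0.022 (95% confidence interval -0.16 to 0.21). Dhx58, a relative without signalling domain, differed by 0.036, with its highest value in wild type replicate 1 (7.90). Zbp1, a sensor of left-handed nucleic acids that triggers cell death, differed by -0.16 in its brightest probe set and by 0.028 in the other. The TRIM ubiquitin ligases Trim21, an antibody receptor in the cytosol, Trim25, which acts on RIG-I, and Trim30a differed by -0.014, 0.013 and -0.13. Of the other genes, Rtp4 (0.0016), Psmb8 (-0.017), the immunoproteasome subunit, Ifi27l2a (-0.017) and Ifi35 (-0.035) lay closest to 0. These genes show the precision of the arrays at this size: the interval of Psmb8 ran from -0.18 to 0.15.

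Ifitm3, which blocks fusion of viruses in endosomes, was widely spread within both genotypes, with the largest SD of the list among HDAC9-/- samples and, after Eif2ak2, the next largest among wild type samples. It read 8.11, 8.51 and 8.86 on the wild type arrays against 9.19, 8.83 and 8.02 on the HDAC9-/- arrays. Both the highest and the lowest of the 6 values were HDAC9-/- samples, and the SD was 0.38 for wild type and 0.60 for HDAC9-/- samples against medians of 0.104 and 0.059 over the list. Over all probe sets the median SD was 0.122 and 0.095. Bst2, which encodes tetherin, a protein that holds budding viruses at the membrane, was close to even, with 8.61 ± 0.08 on wild type and 8.66 ± 0.05 on HDAC9-/- arrays (SD, n = 3).

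**Figure D3:**
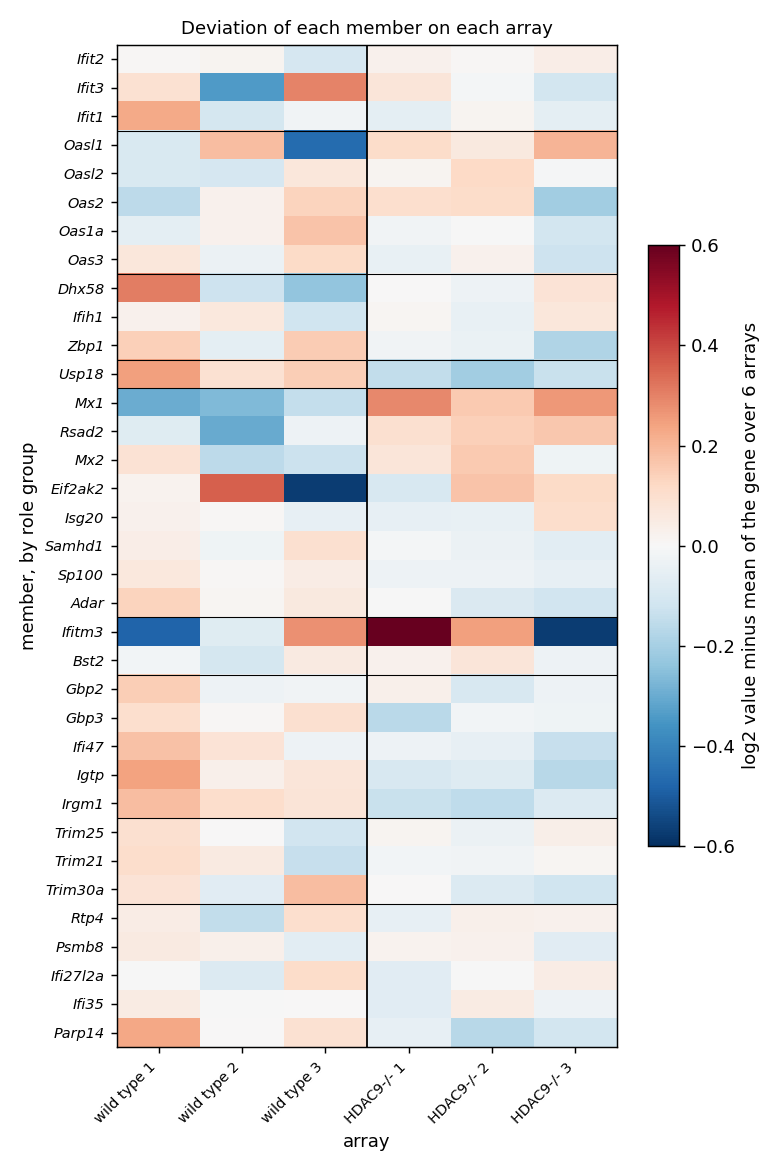
Log2 value of each of the 35 genes on each array minus the mean of that gene over the 6 arrays, as colour (red above, blue below), with genes grouped by role and the 3 wild type arrays left of the line. The immunity-related GTPase and guanylate-binding protein rows and Usp18 are mostly red in wild type and blue or pale in HDAC9-/- columns (Gbp2 is mixed). Mx1 and Rsad2 show the reverse, and Ifitm3, Eif2ak2 and Oasl1 vary within a genotype.

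Arrays differed in how the genes fell. Wild type replicate 1 held the highest of the 6 values for 15 of the 35 genes and wild type replicate 3 for 9. The lowest value lay in HDAC9-/- replicate 3 for 12 genes, and in wild type replicates 2 and 3 for 8 each. Wild type replicate 3 thus was often at one end or the other. Its mean correlation with the other arrays was 0.991, against 0.994 to 0.996 for the rest. Without it the immunity-related GTPases and guanylate-binding proteins of the list had a median difference of -0.20.

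The pathway upstream of these genes was described by a list of 34 genes, of which 32 were measured. None were called over all probe sets, 11 differences were positive and 21 negative, and the median was -0.043. At an unadjusted p below 0.05 there were 5 of the 32, 1 higher and 4 lower. This is 15.6% of the list against 8.78% of all probe sets (5.55% higher and 3.23% lower). The genotypes did not overlap for 6, or 18.8%, which is close to the 17.0% of all probe sets. Of the 6, 2 were higher and 4 lower, while over all probe sets 11.0% were higher and 6.04% lower without overlap.

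Among ligands, Ifng, the gene of interferon gamma, read 7.87, 7.20 and 7.81 on the wild type arrays against 6.95, 7.27 and 6.99 on the HDAC9-/- arrays. Wild type replicate 2 lay among the HDAC9-/- samples, and the difference was -0.56 ± 0.19 (SE, limma, adjusted p = 0.530). The receptor chains of type I interferon overlapped between genotypes, with differences of -0.13 for Ifnar1 and 0.043 for Ifnar2. The 5 measured kinase and factor genes all had negative differences, of which Stat2 had -0.11. Irf9, the DNA-binding subunit of the complex, read 9.25, 9.11 and 9.17 on the wild type arrays against 8.81, 8.92 and 8.95 on the HDAC9-/- arrays. It was the only gene of those 5 without overlap, with a difference of -0.28 ± 0.07 (SE, limma, adjusted p = 0.434).

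Irf7, itself induced by interferon and a driver of interferon alpha genes, differed by -0.082 with overlapping groups. Irf8, a factor of myeloid and B cells, read 8.59, 8.82 and 8.87 on the wild type arrays against 9.22, 9.09 and 8.97 on the HDAC9-/- arrays, a difference of 0.34 without overlap (limma, adjusted p = 0.495). Socs1, a feedback inhibitor of the receptor kinases, read 7.55, 7.53 and 7.37 on the wild type arrays against 7.14, 7.04 and 7.24 on the HDAC9-/- arrays, also without overlap (difference -0.34, adjusted p = 0.423). Sting1, the adaptor of the cytosolic DNA sensor, read 9.64, 9.42 and 9.50 against 9.35, 9.28 and 9.28 (difference -0.22, adjusted p = 0.545). Irf9, Socs1 and Sting1 thus had lower values in all HDAC9-/- samples, like Usp18, and Irf8 had higher ones, like Mx1; none of these passed the test.

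Foxp3, Cd3e, Cd4, Il2ra and Ctla4, which mark the labelled cells, were above the array median on every array in their brightest probe sets, while Ikzf2, a factor of many Treg, was below the array median on all of them. Other cells of the isolated fraction were followed by marker lists. All 14 measured myeloid markers had positive differences, and 6 (42.9%) did not overlap, against 11.0% of all probe sets that were higher without overlap. Their summed linear signal was 4976 to 8487 on wild type and 10507 to 12473 on HDAC9-/- arrays, without overlap. S100a8 and S100a9 made up a large part of it, so its separation depends heavily on them, and a sum without them was not taken. Cst3, Flt3, Itgax and Cd68 also lay apart. The 8 markers that overlapped included Lyz2, at 9.18, 9.92 and 10.36 on wild type and 10.67, 10.66 and 9.24 on HDAC9-/- arrays. Csf1r read 7.18, 7.62 and 7.40 against 8.39, 8.28 and 7.01. Mpeg1 read 8.21, 8.58 and 8.71 against 9.43, 9.16 and 8.34. In each, HDAC9-/- replicate 3 lay below wild type replicate 2. Cd14, Itgam and Adgre1 were below the array median on every array. Of the 4 plasma cell markers 3 had negative differences, and their sum, mostly Jchain, was 4156 to 4435 on wild type and 2914 to 3330 on HDAC9-/- arrays, with Sdc1 and Tnfrsf17 below the array median throughout.

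The remaining lists overlapped in their sums. Of 5 measured plasmacytoid dendritic cell markers 4 had positive differences, with sums of 1099 to 1354 on wild type and 1256 to 1338 on HDAC9-/- arrays, Klk1 being below the array median throughout. Of 7 B cell markers 4 had positive differences, with sums of 775 to 926 and 679 to 1145, and Pax5, Cr2 and Fcer2a were below the array median throughout. Of 8 CD8 T cell and natural killer cell markers 6 had positive differences, with sums of 2721 to 3545 and 3062 to 3773. For Gapdh, the 3-prime minus the 5-prime control probe set, a sign of RNA integrity and labelling, came to 0.026 to 0.11 on wild type and 0.15 to 0.28 on HDAC9-/- arrays. The myeloid sum (in large part S100a8 and S100a9), the plasma cell sum and the Gapdh difference thus separated the genotypes. Mx1, Usp18 and 4 of the GTPase genes did so too, and the part of these measures in those results was not tested. In RNA from a mixed fraction, fewer cells of a type and less RNA per cell cannot be told apart.

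**Figure D4:**
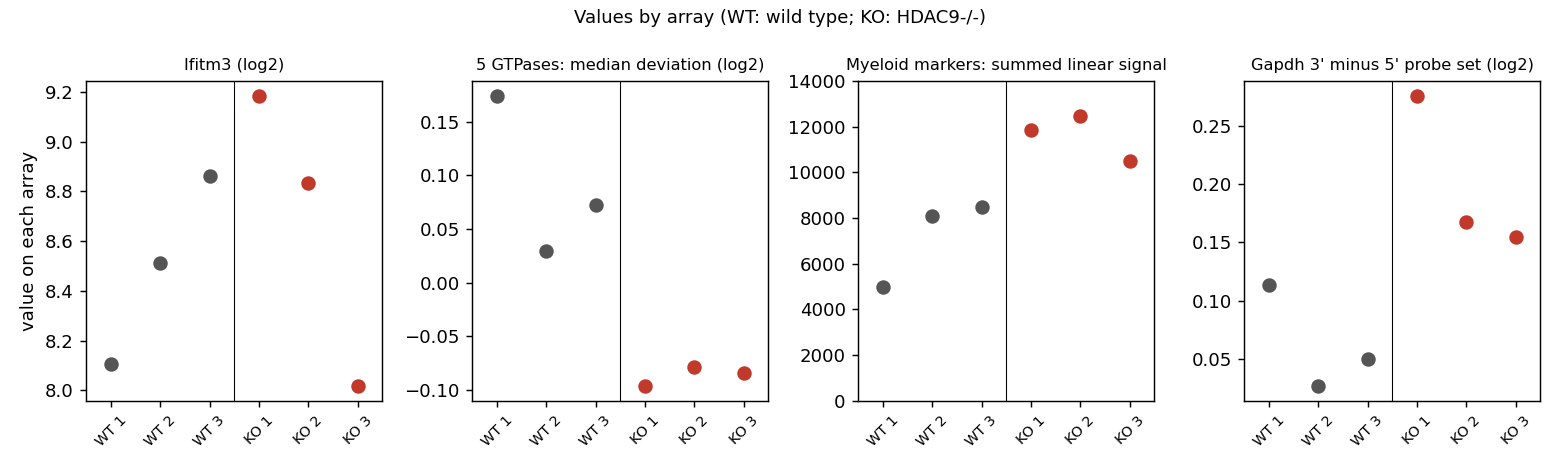
Values on each array (WT, wild type replicates 1 to 3, grey; KO, HDAC9-/- replicates 1 to 3, red) of Ifitm3 in log2 units, the median deviation of the 5 GTPase genes from their means in log2 units, the summed linear signal of 14 myeloid markers (in large part S100a8 and S100a9), and the Gapdh 3-prime minus 5-prime difference in log2 units. Ifitm3 overlaps between genotypes, from 8.02 to 9.19, while the other 3 measures do not overlap; the vertical axis starts at 0 only for the myeloid sum.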

How the data were processed

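Expression was measured on 6 arrays with probe set names of the Affymetrix form, 3 per genotype. The authors made the deposited log2 values with RMA, per the submitters' processing notes; no settings or version are stated there. RMA can compress differences of dim probe sets. Of 22690 probe sets, 64 controls were left out and 22626 tested without a filter on brightness; 20380 carry 1 gene symbol, 691 several and 1555 none. Genes were named by platform symbol, with Tmem173 listed as Sting1. The number of arrays limits the precision.

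Differences are HDAC9-/- minus wild type, fitted with limma 3.58.1 in R 4.3.3 (genotype alone, Benjamini-Hochberg over all probe sets) and tested on simulated data. Figures used matplotlib 3.10.9 in Python 3.11.15. An exact permutation test of 3 against 3 samples cannot go below p = 0.10. Genes given on all arrays had an unadjusted p below 0.05 or groups that do not overlap, were among the 3 widest differences in either direction of at least median brightness, or were Ifit1, Mx1, Oas1a and Usp18. Of the other lists, genes with an unadjusted p below 0.05 (at most 5 per list) and Ifnar1, Ifnar2, Stat2, Irf9 and Irf7 were named. Ifitm3, Eif2ak2 and the second Samhd1 probe set were shown by array after their values were seen. The gene list and the other lists were chosen with earlier results of these data known. Alternatives were 2 normalizations, a brightness filter, another variance prior, array weights, a block for the replicate number, averaging the probe sets of a gene, each array left out, and other thresholds.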

Additional observations from a re-analysis of the deposited data

How the results depend on the processing

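No gene of the list was called under any of the 13 alternative fits (limma, smallest adjusted p of any gene 0.123, with a trended and robust prior), nor at an adjusted p of 0.10; 6 had an unadjusted p below 0.05. Whether same-numbered samples were paired is not known from the labels. The deviations of same-numbered arrays correlated at 0.036, 0.099 and -0.25, and 3 such values are too few to decide it. With a replicate block the count was also 0 of 35, and over all probe sets it went from 3 to 0. Leaving out 1 array, the median difference of the list ran from -0.062 to -0.0053, the genes without overlap from 10 to 17, those higher without overlap from 2 to 4 and those lower without overlap from 8 to 14; with 5 arrays groups separate more easily. Of 169 differences of 13 named genes under the alternatives, 168 kept their sign and were not called. The remaining 1 reversed: Ifit1, which ran from -0.14 to 0.030 with 1 array left out, turned positive without wild type replicate 1. Many of these signs were fixed in advance. The brightness filter, the other variance prior and the replicate block leave each difference as it was. Averaging probe sets changes nothing for a gene with 1 probe set, which all named genes but Rsad2 had. For genes whose groups do not overlap, leaving out an array or weighting arrays cannot turn the sign. Of the 15 further probe sets of 10 genes, 11 had the sign of the brightest one. Isg15, Ddx58, Ly6e, Ifi44 and Xaf1 were not analysed here. RMA can understate differences of dim genes, which was not measured here.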

Other observations

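2 relatives of Ifitm3 were measured. Ifitm2 read 7.38, 7.57 and 7.72 on the wild type arrays against 8.22, 7.92 and 7.61 on the HDAC9-/- arrays. Its order within each genotype was that of Ifitm3, but its groups were closer to separation, with overlap through HDAC9-/- replicate 3 alone. Ifitm1 read 7.63, 7.57 and 7.66 against 7.75, 7.54 and 7.34, with little spread among wild type samples (SD 0.044) and more among HDAC9-/- samples (SD 0.21). Ifitm1 and Ifitm2 lie in a family of close copies, and they were chosen after their values were seen. Of the myeloid markers, Lyz2, Mpeg1, Cst3, Fcgr3, Cd68 and Itgax also had the order of Ifitm3 within each genotype. The other measured ones did not, and a relation was not tested.

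Most measured genes of the peptide loading and immunoproteasome machinery, which interferon also induces, were close to even. Tap1 differed by -0.0065, Tap2 by 0.033, Psmb9 by -0.021, Psmb10 by 0.0087 and Psme1 by -0.00030 (limma, adjusted p from 0.892 to 0.999). Tapbp, which encodes tapasin, differed by -0.085 with overlapping groups (adjusted p = 0.733). The chemokine gene Cxcl10, a target of both interferon types, was higher by 0.30 with overlapping groups (adjusted p = 0.572).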
